A study of Mus musculus with 36 samples.

Results

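The cytosolic heat shock genes are described here in mouse embryonic fibroblasts (MEF), mesenchymal cells grown in culture from embryos. They are 10 genes chosen by name, Hspa1a, Hspa1b, Hsph1, Dnajb1, Hspb1, Hsp90aa1, Hsp90ab1, Hspa8, Bag3 and Ahsa1, out of 49585 genes in the tables. The choice rests on their names and on no measured value. The cells carried the N129D knock-in allele of Tbk1, a kinase of innate immune and autophagy signalling, on no copy (WT, lines E2.1, E2.7 and E1.5), on 1 copy (het, lines E2.5, E2.6, E2.8 and E1.3) or on both copies (hom, lines E2.2, E2.9 and E1.4). Each of these 10 lines was measured untreated, after 4 h with poly(I:C), which mimics viral double-stranded RNA, and after 4 h with antimycin plus oligomycin (AO), inhibitors of respiratory complex III and of ATP synthase. This gave 9 groups of 3 or 4 lines and 30 libraries. WT line E1.5 was also sequenced once per treatment at each of 2 labelled densities, low and high, for 6 more libraries. All cells were grown in DMEM. The sources used here do not give embryo age, strain or doses. All libraries of a line share that line, so the 3 treatments of a line are paired. The main fit has no line term, and its p-values rest on the spread between the lines of a group. Treatment p-values with the line as a replicate block, given beside them, rest on the spread within lines.

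Heat shock proteins are molecular chaperones that hold, fold or hand over other proteins. In the cytosol, HSP70 proteins bind exposed hydrophobic stretches of a client with the help of HSP40 co-chaperones and are reset by nucleotide exchange factors, and HSP90 acts later on clients such as kinases. When unfolded protein builds up, the factor HSF1 is freed from chaperones, forms trimers and binds repeats of the unit nGAAn, the heat shock element, in front of these genes. Hspa8, Hsp90ab1 and, in fibroblasts, Hsp90aa1 are also made without stress, whereas Hspa1a and Hspa1b are the classic inducible pair.

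The promoters of Hspa1a, Hspa1b, Hsph1 and Hspb1 are shown because they hold a stretch of the heat shock element. RefSeq windows on GRCm38.p6, of 250 bases before the start site, were found for 7 of the 10 genes. Hsp90aa1, Hsp90ab1 and Hspa8 had no entry. Each sequence runs 5′ to 3′ on the gene's strand, with the matched units in capitals and 10 bases to either side.
Hspa1a: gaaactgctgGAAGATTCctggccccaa
Hspa1b: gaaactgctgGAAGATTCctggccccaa
Hsph1: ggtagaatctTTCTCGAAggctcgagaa
Hspb1: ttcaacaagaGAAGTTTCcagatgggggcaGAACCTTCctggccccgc
The stretches lie at chr17:34972243-34972270 for Hspa1a, chr17:34959325-34959352 for Hspa1b and chr5:149636352-149636379 for Hsph1, all on the minus strand, and at chr5:135887792-135887839 on the plus strand for Hspb1. The first matched base stood 104 bases before the start of Hspa1a and of Hspa1b, 117 and 97 bases before that of Hspb1, and 33 or 54 bases before the 2 start sites of Hsph1. The Hsph1 stretch overlaps the first exon, in the 5′ UTR, of the GENCODE model, which starts further upstream. A motif of 2 facing units was searched as GAANNTTC or TTCNNGAA, forms that read the same on both strands. It was found in these 4 of 7 genes, beside 14.5% of 27025 genes and 12.8% of 32851 windows of the same length. The motif of 3 units, GAANNTTCNNGAA or its reverse complement TTCNNGAANNTTC, which contains the shorter one, was in 0 of the 7 and in 0.466% of all windows. Counted by gene, the motif of 3 units was in 0.514% of 27025 genes. The windows of Hspa1a and Hspa1b were identical at 247 of 250 bases. These matches describe letters in a window, and binding was not measured.

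Hspa1a and Hspa1b, the stress-inducible HSP70 genes, are near-identical neighbours at chr17:34969190-34972156 and chr17:34956436-34959238, both on the minus strand. Hspa8, the constitutive HSP70, lies at chr9:40800984-40810087 on the plus strand. Hsph1, which encodes the nucleotide exchange factor HSP110, lies at chr5:149614287-149636376 on the minus strand, and Dnajb1, an HSP40, at chr8:83608193-83612653 on the plus strand. The HSP90 genes are Hsp90aa1 at chr12:110690605-110702728 and Hsp90ab1 at chr17:45567775-45573271, both on the minus strand. Hspb1, a small heat shock protein, lies at chr5:135887919-135889563, Bag3, a co-chaperone that links HSP70 and small heat shock proteins to autophagy, at chr7:128523616-128546981, and Ahsa1, the activator of the HSP90 ATPase, at chr12:87266479-87273998, all on the plus strand. Coordinates span the whole gene on GRCm38 in GENCODE release 21. Estimated counts of Hspa1a, Hspa1b, Hsp90aa1 and Hspa8 were not whole numbers in all 36 libraries, so reads were shared out between these genes and similar copies. They were whole in all 36 for Dnajb1, Bag3 and Ahsa1. The split between Hspa1a, with 6 to 138 counts in a library, and Hspa1b, with 27 to 359, is therefore uncertain, and their sum is given as well.

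Depth was 3689144 to 14879227 counts in the 30 libraries, 16474011 to 22756870 at high density and 5391393 to 6307963 at low density. Fibroblast markers were present throughout, with 9 or 10 of 10 detected and a summed level of 7773 to 18471 CPM (counts scaled by library size). The treatments were checked with 1 gene each, named after their values were seen. Ifit1, an interferon-induced gene, was at 888 to 1099 CPM after poly(I:C) in WT lines against 107 to 144 untreated, and at 14.2 to 47.0 against 1.36 to 4.89 in hom lines. In het lines the ranges overlapped, at 162 to 2414 CPM after poly(I:C) and 45.9 to 323 untreated. The lowest het value in both was line E2.6, and the genotype labels were not checked here against reads over the N129D codon, which matters for every het value because E2.6 stands apart below. Ddit3, a gene of the integrated stress response, was at 211 to 492 CPM after AO in all 10 lines against 20.9 to 103 untreated. All 10 heat shock genes passed the filter on low counts.

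In untreated cells the constitutive HSP90 and HSP70 genes were far above the inducible pair per length of exon. Hsp90ab1 led with 1070 ± 82.1 CPM per kb (SD, n = 10 lines), followed by Hspa8 with 657 ± 52.2 and Hsp90aa1 with 409 ± 46.5. Each of these exceeded the next gene in 10 of 10 lines. Ahsa1 followed at 32.8 ± 2.6 CPM per kb and Hspb1 at 29.7 ± 17.6. Ahsa1 was the higher of these in 8 of 10 lines, and the Hspb1 range of 17.5 to 65.0 covered that of Ahsa1. Bag3 at 18.5 ± 4.61, Dnajb1 at 17.2 ± 1.31 and Hsph1 at 16.5 ± 2.51 CPM per kb did not differ beyond their spread, since Bag3 exceeded Dnajb1 in 4 lines and Dnajb1 exceeded Hsph1 in 5. Length is that of all annotated exons of a gene together, 7266 bases for Hsph1 and 3204 for Dnajb1. The order of genes at like levels depends on this choice, and in CPM alone Hsph1 was at 120 and Dnajb1 at 55.2. The inducible pair was lowest, with Hspa1b at 5.10 ± 1.91 and Hspa1a at 1.35 ± 0.631 CPM per kb, below the gene before it in 10 of 10 lines each. Hsp90ab1, Hspa8 and Hsp90aa1 formed a tier of their own, since the lowest value of Hsp90aa1 in any line, 352 CPM per kb, stood above the highest of Hspb1, 65.0.

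**Figure D1:**
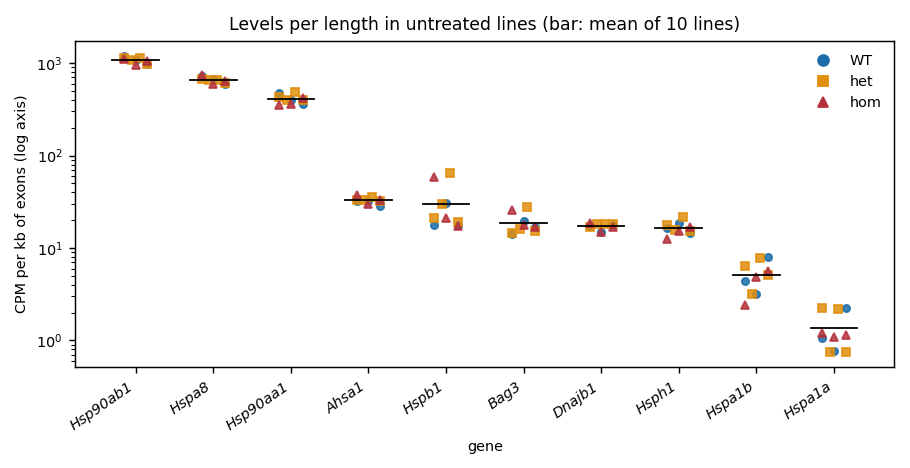
Level per length of the 10 heat shock genes in untreated fibroblasts, as CPM per kb of exons on a log axis. Each point is 1 of 10 lines, coloured by Tbk1 genotype, and the bar is their mean. Hsp90ab1, Hspa8 and Hsp90aa1 form the upper tier and Hspa1a is lowest, while Bag3, Dnajb1 and Hsph1 overlap.

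Poly(I:C) was followed by higher levels of HSP70 and HSP90 transcripts, with Hspa8 the clearest. Untreated WT lines E2.1, E2.7 and E1.5 had 2879, 2558 and 3102 CPM of Hspa8, and after poly(I:C) they had 4009, 3475 and 4236. Het lines E2.5, E2.6, E2.8 and E1.3 went from 2829, 2852, 2611 and 2922 CPM to 3934, 3185, 3843 and 4065. Hom lines E2.2, E2.9 and E1.4 went from 2551, 2731 and 3229 CPM to 3691, 3958 and 3467. Every line was higher after poly(I:C), and the treated and untreated lines of each genotype did not overlap. The smallest increases were in E1.4 and E2.6. Hspa8 rose by 0.46 ± 0.11 on the log2 scale in WT (SE, edgeR quasi-likelihood test with Benjamini-Hochberg adjustment over 13364 genes, adjusted p = 0.0269) and by 0.42 ± 0.10 in het lines (edgeR adjusted p = 0.0134). In hom lines the difference was 0.39 ± 0.11 and did not pass (edgeR adjusted p = 0.107). Hspa8 was the sole gene of the 10 to pass, 1 of 10 in WT against 3.2% of all genes, 1 of 10 in het against 4.67% and 0 of 10 in hom against 1.28%. In hom lines 5 of the 10 had an unadjusted p under 0.05, beside 1599 of all 13364 genes, and DESeq2 called 2 of the 10 and 350 of all genes. The Hspa8 call ended in WT without any 1 of its 3 lines (adjusted p = 0.135 to 0.247) and in het lines without E1.3, E2.5 or E2.8 (0.0840 to 0.155). The difference itself stayed at 0.43 to 0.47 in WT and at 0.39 to 0.41 in het lines. In these bulk samples, fewer cells of a type and less RNA per cell cannot be told apart.

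With the line as a replicate block, which compares the treatments within lines, more of the group passed. There, 5 of 10 genes rose in WT (15.7% of all genes were called), 5 of 10 in het (17.8%) and 4 of 10 in hom (9.79%), and 0 fell. These shares of all genes count both directions. Hspa1a, Hsp90aa1, Hsp90ab1 and Hspa8 passed in all 3 genotypes, and Dnajb1 in WT and het. The median log2 difference of the 10 genes in the fit without the block was 0.29 in WT, 0.30 in het and 0.28 in hom, beside 0.01, 0.00 and 0.00 for all genes. No response differed between genotypes by a test of the difference, as given below, so the mean response over genotypes was added after these results were seen. On that mean, 5 of 10 rose without the block, where 21.7% of all genes were called, 1324 up and 1571 down. With the block 9 of 10 rose, where 39.4% of all genes were called in either direction.

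Hspa1a had the largest estimated fold difference of the group in each genotype and, with Hspa1b, the lowest counts. Hspa1a was at 2.28, 6.73 and 3.18 CPM in untreated WT lines E2.1, E2.7 and E1.5 and at 6.69, 10.3 and 8.92 after poly(I:C). In het lines E2.5, E2.6, E2.8 and E1.3 it went from 2.22, 6.48, 2.24 and 6.62 CPM to 5.23, 6.75, 7.56 and 14.1. In hom lines E2.2, E2.9 and E1.4 it went from 3.26, 3.40 and 3.57 CPM to 7.5, 7.48 and 6.78. All 10 lines were higher after poly(I:C), with E2.6 almost level, and only the hom groups did not overlap. Hspa1a rose by 1.04 ± 0.26 on the log2 scale over genotypes (edgeR adjusted p = 0.00548). The interval was wide within a genotype, at 1.11 ± 0.48 in WT, 0.93 ± 0.40 in het and 1.08 ± 0.47 in hom, and none of these passed without the block.

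Hspa1b was higher after poly(I:C) in 9 of 10 lines, with a median of 14.1 CPM (6.78 to 22.2) untreated and 18.9 (8.86 to 31.1) treated. The exception was E2.6, at 22.1 and 19.1 CPM. Its difference over genotypes was 0.48 ± 0.24 and passed with the replicate block (adjusted p = 0.00179) but not without it (edgeR adjusted p = 0.163). Summed, Hspa1a and Hspa1b had 18.3 ± 6.96 CPM untreated and 27.9 ± 8.74 after poly(I:C) (SD, n = 10 lines). The sum rose by 0.62 ± 0.22 on the log2 scale (edgeR adjusted p = 0.0439). Hspa1a made up 21.9% of it untreated (13.4% to 34.5% over lines) and 29.9% after poly(I:C) (24.1% to 43.3%), a share that depends on how reads were divided between the copies.

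Both HSP90 genes rose by a smaller fold from a high level. Hsp90ab1 had a median of 3222 CPM (2850 to 3624) untreated and 3911 (3581 to 4460) after poly(I:C), was higher in 10 of 10 lines and rose by 0.30 ± 0.06 over genotypes (edgeR adjusted p = 0.000640). Hsp90aa1 had a median of 1577 CPM (1383 to 1897) and then 1944 (1560 to 2223), was also higher in 10 of 10 lines and rose by 0.26 ± 0.08 (edgeR adjusted p = 0.0200), a call that ended without E2.1 (adjusted p = 0.0812) or E2.8 (0.0548). Without these lines the Hsp90aa1 difference was 0.24 and 0.25. The untreated and treated ranges overlap, yet no line went the other way.

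The co-chaperones moved less evenly. Dnajb1 rose by 0.26 ± 0.06 over genotypes (edgeR adjusted p = 0.00366), from a median of 56.1 CPM (48.3 to 59.8) to 63.8 (57.1 to 73.5), in 9 of 10 lines. The exception was again E2.6, at 58.7 and 57.1 CPM. Hsph1 was higher in 10 of 10 lines, with medians of 118 CPM (90.4 to 157) and 134 (106 to 199) and a difference of 0.19 ± 0.09 that passed with the replicate block only (adjusted p = 0.00307). Bag3 (0.19 ± 0.15) and Hspb1 (0.31 ± 0.33) were each higher in 9 of 10 lines and likewise passed with the block only (adjusted p = 0.0254 and 0.0121). In both, the exception was E1.4, where Bag3 went from 65.5 to 58.2 CPM and Hspb1 from 60.2 to 45.0. Ahsa1 was higher in 4 of 10 lines, at a median of 143 CPM untreated and 141 treated, and passed in neither fit (−0.05 ± 0.07).

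Het line E2.6 and hom line E1.4 gave these exceptions. Ifit1 went from 45.9 to 162 CPM with poly(I:C) in E2.6, the lowest het values, and from 1.36 to 14.2 in E1.4, the lowest hom values. With both lines left out, 8 of 10 heat shock genes rose with poly(I:C) over genotypes without the block. This setting was added after the levels of these lines were seen, and it called 5161 of 13367 genes in either direction. With all lines the fit called 2895 of 13364. The exceptions lay in the lines left out, so the choice itself favoured a higher count, which is no added support. These lines did not rise less in every gene, and Hsph1 went from 157 to 199 CPM in E2.6. The part of the Ifit1 level in the exceptions named above was not tested. Hom lines as a group had less Ifit1 than WT after poly(I:C) (log2 −4.93 ± 0.87, edgeR adjusted p = 0.0222).

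**Figure D2:**
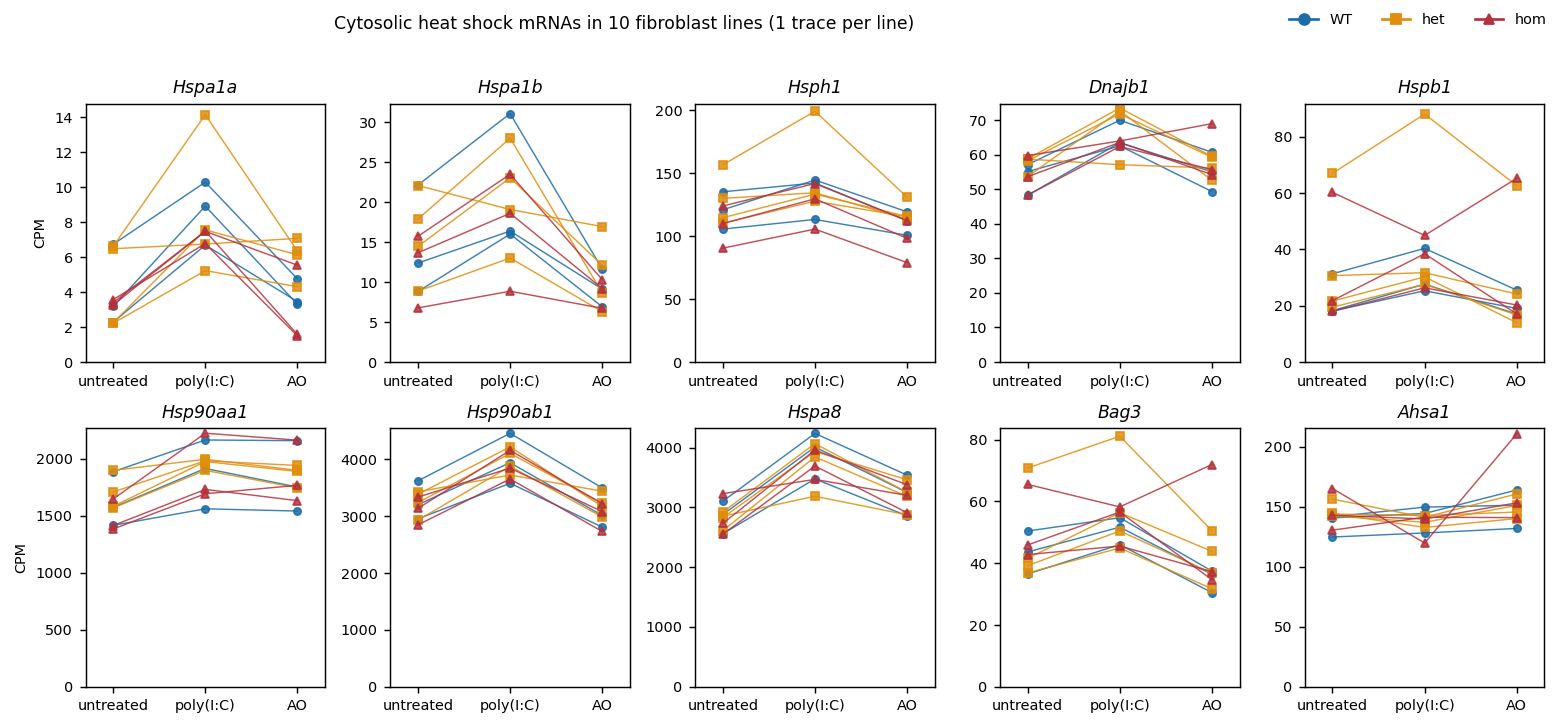
CPM of each heat shock gene in untreated, poly(I:C)-treated and AO-treated cells, with 1 trace for each of 10 lines coloured by Tbk1 genotype and axes starting at 0. Most traces peak at poly(I:C), Hspa8 in 10 of 10 lines against untreated cells, and the 2 upper traces of Hspb1 and Bag3 are het line E2.6 and hom line E1.4.

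AO left the group near its untreated level. Against untreated cells, 0 of 10 genes passed in WT, het and hom lines, where edgeR called 7.66%, 11.1% and 13.1% of all genes. DESeq2 also called 0 of the 10 in each genotype, beside 1361, 1824 and 2133 of 13364 genes. The members with an unadjusted p under 0.05 were 0, 0 and 1, beside 2718, 3118 and 3550 of all genes. With the replicate block, 1 of 10 passed in each. Hspa1b fell in WT (−0.60 ± 0.21, adjusted p = 0.0482, 22.9% of all genes called) and in het lines (−0.54 ± 0.18, adjusted p = 0.0313, 27.5% called), and Hsp90aa1 rose in hom lines (0.32 ± 0.07, adjusted p = 0.00169, 29.7% called). These shares are no higher than those of all genes. On the summed counts of Hspa1a and Hspa1b, the fall passed in neither WT (adjusted p = 0.126) nor het lines (adjusted p = 0.317) with the block.

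Averaged over genotypes, Hsp90aa1 and Hspa8 rose with AO. Hsp90aa1 rose by 0.21 ± 0.08 (edgeR adjusted p = 0.0410), from a median of 1577 CPM to 1827 (1540 to 2162), in 10 of 10 lines. Hspa8 rose by 0.17 ± 0.06 (edgeR adjusted p = 0.0368), from a median of 2841 CPM to 3224 (2858 to 3538), in 9 of 10 lines, E1.4 being the exception at 3229 and 3200 CPM. These 2 of 10 stood beside 33.7% of all genes called, 2270 up and 2231 down. The Hspa8 call ended without any 1 of 8 lines, all but E2.6 and E1.4, and the Hsp90aa1 call without any 1 of 9, all but E2.6 (adjusted p = 0.0532 to 0.117). Without 1 such line the difference was 0.14 to 0.17 for Hspa8 and 0.18 to 0.21 for Hsp90aa1.

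With the block, where 50.4% of all genes were called, the same pair rose and Hspa1b, Hsph1 and Bag3 fell. Hspa1b was lower in 10 of 10 lines, at 9.16 CPM (6.31 to 17) against 14.1, with a difference of −0.53 ± 0.12 (adjusted p = 0.00115). The sum of Hspa1a and Hspa1b was 14.2 ± 4.71 CPM after AO and fell by 0.36 on the log2 scale with the block (SE 0.11, adjusted p = 0.0111). Hsph1 fell by 0.13 (SE 0.05, adjusted p = 0.0305) and Bag3 by 0.21 (SE 0.07, adjusted p = 0.0171), each in 8 of 10 lines. Hspa1a (0.06 ± 0.27 without the block), Dnajb1, Hspb1, Hsp90ab1 and Ahsa1 passed in neither fit. Ahsa1 was higher after AO in 9 of 10 lines, and line E1.4 stood out with 211 CPM beside 132 to 164 in the other lines.

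Set directly against poly(I:C), AO gave lower levels of most of the group. The treatments were each compared with the same untreated libraries above, and here with each other. Averaged over genotypes, 7 of 10 genes were lower and 1 was higher after AO, where 41.4% of all genes were called, 2728 lower and 2801 higher. Hspa1b was lower by a log2 of −1.02 ± 0.24 (edgeR adjusted p = 0.00141) and Hspa1a by −0.98 ± 0.26 (edgeR adjusted p = 0.00395). Hspa1b was lower after AO in 10 of 10 lines and Hspa1a in 9, with E2.6 at 7.08 CPM after AO and 6.75 after poly(I:C). The remaining lower genes were Bag3 (−0.41 ± 0.15), Hsp90ab1 (−0.35 ± 0.06), Hsph1 (−0.32 ± 0.10), Hspa8 (−0.25 ± 0.06) and Dnajb1 (−0.20 ± 0.06). The ranges of Hsp90ab1 did not overlap, at 2732 to 3499 CPM after AO and 3581 to 4460 after poly(I:C). Ahsa1 was the sole higher gene (0.17 ± 0.07, edgeR adjusted p = 0.0381), at a median of 151 CPM against 141. That call ended without any 1 of 8 lines, all but E2.2 and E2.9 (adjusted p = 0.0668 to 0.182), and without E1.4 the difference itself was 0.08. The call of Bag3 ended without E1.5, E2.1, E2.2, E2.7 or E2.9 (0.0579 to 0.110), at differences of −0.43 to −0.34. Hsp90aa1 differed by −0.05 (−0.20 to 0.11, that is 2 SE to either side) and did not pass. The replicate block added Hspb1, for 8 lower and 1 higher with 56.7% of all genes called.

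**Figure D3:**
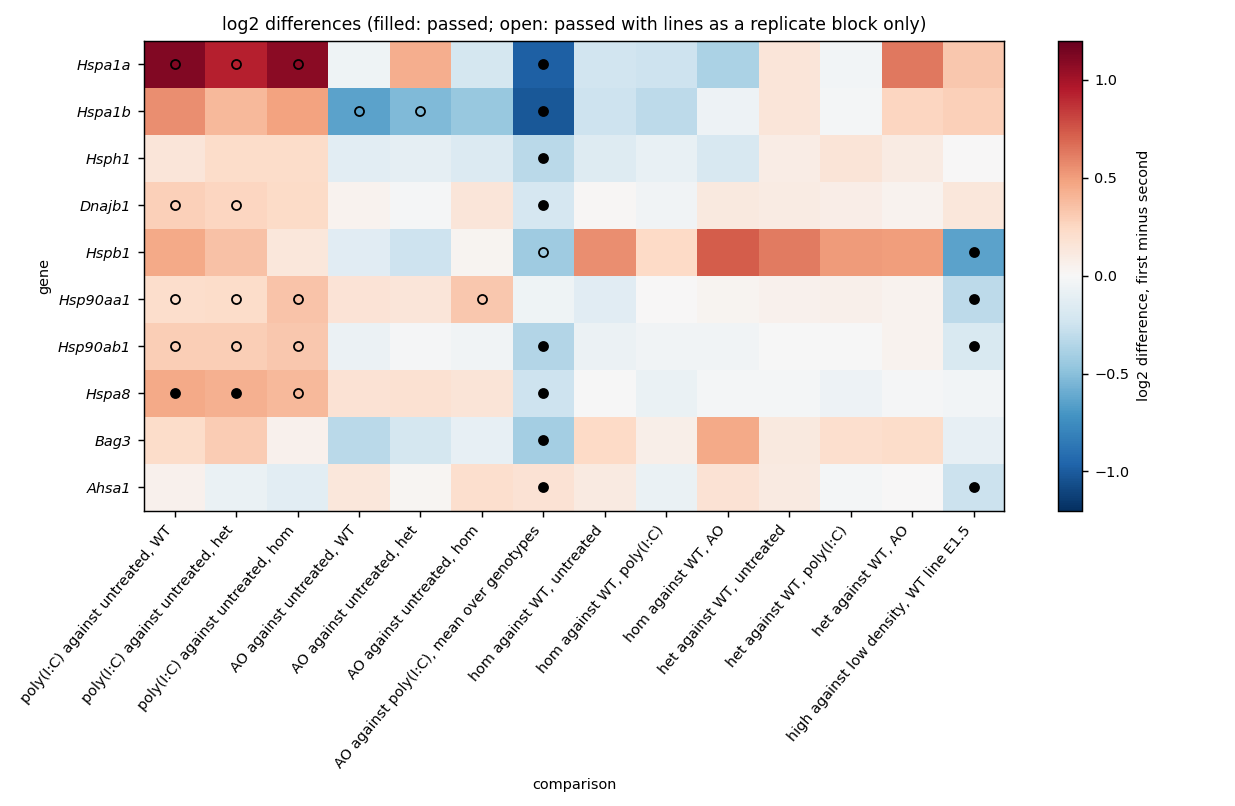
Log2 differences of the 10 heat shock genes (rows) in 14 comparisons (columns), first group minus second, in red for higher and blue for lower. Filled points passed at an adjusted p under 0.05 and open points passed only with the line as a replicate block. Calls lie in the treatment and density columns, and the genotype columns have none.

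The Tbk1 genotype was not followed by a detected change in any of the 10 genes. Between hom and WT lines 0 of 10 passed in untreated cells (edgeR called 0.015% of all genes), after poly(I:C) (0.254%) and after AO (0.0%). Between het and WT lines 0 of 10 passed in untreated cells, after poly(I:C) and after AO, where 0.0% of all genes were called each time. The responses to poly(I:C) and to AO did not differ from WT in hom or in het lines for any of the 10, with 0.0% of all genes called in each of these 4 tests. No gene of the 10 had an unadjusted p under 0.05 in these comparisons. A fit with the line as a random replicate block also called 0 of 10 in every genotype comparison within a treatment.

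The intervals show what these groups could have missed. For the abundant genes they were narrow. In untreated cells, the hom minus WT difference of Hspa8 lay between −0.23 and 0.22 on the log2 scale (2 SE to either side). Dnajb1 differed by 0.01 (−0.21 to 0.24) and Hsp90ab1 by −0.07 (−0.28 to 0.14). For Hspb1, at 0.56 (−0.64 to 1.76), and Hspa1a, at −0.23 (−1.19 to 0.73), a difference of over 1.5-fold lies within the interval. The Hspb1 value rests on hom line E1.4 and was −0.19 without it. After AO, the hom minus WT difference of Bag3 was 0.46 (−0.08 to 1.0), and 0.04 without E1.4. That of the poly(I:C) response of Hspa8 was −0.07 (−0.40 to 0.25).

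Some genes of the group differed widely between lines, above all Hspb1 and Bag3. Hspb1 was at 67.0, 88.1 and 62.6 CPM in het line E2.6 and at 60.2, 45.0 and 65.3 in hom line E1.4 (untreated, poly(I:C) and AO). The other 24 libraries had a median of 23 CPM (14 to 40.3), so the 2 lines did not overlap with the rest. Bag3 was at 70.8, 81.1 and 50.6 CPM in E2.6 and at 65.5, 58.2 and 72.0 in E1.4, beside a median of 43.2 (30.5 to 56.6) elsewhere. Hsph1 was highest in E2.6 (131 to 199 CPM) and lowest in E1.4 (78.9 to 106), so these lines were not alike in every gene. Hspa1b was at 6.72 to 8.86 CPM in E1.4, the lowest line untreated and after poly(I:C), while after AO het line E2.5 was lower at 6.31.

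Some markers of other cell types were also higher in E2.6, E1.4 or E2.9 than in most lines. All 12 macrophage markers were detected in E2.6 and in hom line E2.9, with sums of 34.6 to 54.2 and 141 to 241 CPM, against 3 to 10 of 12 and 2.95 to 11 CPM in the other 24 libraries. The sum of 6 muscle markers was 61.5 to 86.8 CPM in E1.4 and 26 to 34.8 in E2.6, while het line E2.5 had 40.1 to 49.5 and the others 3.07 to 30.3 CPM. Within that list Des and Tnnt2 carried most of the signal in E1.4, Acta1 was at 11.1 to 15.1 CPM in E2.6, and Myog was at 0 in both lines. In E1.4, Acta1 was at 1.11 to 1.87 CPM, Actc1 at 0 to 0.498 and Myh3 at 0. The sum of 5 endothelial markers was 21.2 to 34.9 CPM in E2.6, 5.36 to 13.3 in E1.4 and 2.39 to 17 in the other lines, mostly from Kdr. Epithelial markers summed to 7.46 to 9.51 CPM in E2.6 and 25.9 to 33.4 in E1.4, within the 3.27 to 79.5 of the other lines. Their part in the Hspb1 and Bag3 levels was not tested. E2.9, with the most macrophage signal, had 18 to 26.3 CPM of Hspb1, within the other lines, and E2.5 had 24.2 to 31.7.

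Line and treatment took different shares of the spread in each gene. Of the sum of squares of log2 CPM over the 30 libraries, the line held 80.5% for Hspb1, 65.7% for Hsph1, 61.7% for Bag3 and 58.4% for Hsp90aa1. The treatment held 70.7% for Hspa8 and 68.9% for Hsp90ab1, with 19.3% and 25.8% for the line. For Dnajb1 the treatment share was 48.8% and for Hspa1b 40.2%. Hspa1a had 41.5% for treatment, 33.1% for line and 25.5% for neither. Ahsa1 had the largest rest, 45.5%. The medians over all genes were 41.9% for the line, 24.5% for the treatment and 23.6% for the rest. Genotype, a part of the line share, held 19.2% of the whole sum of squares for Hsph1, the highest, and 0.480% for Hspa8. Its median over all genes was 5.65%. The Hsph1 share rests in part on 2 lines, het E2.6 (mean of 162 CPM over treatments) and hom E1.4 (91.6), beside 106 to 130 in the others. Without E1.4 the untreated hom minus WT difference of Hsph1 was −0.05 in place of −0.16.

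**Figure D4:**
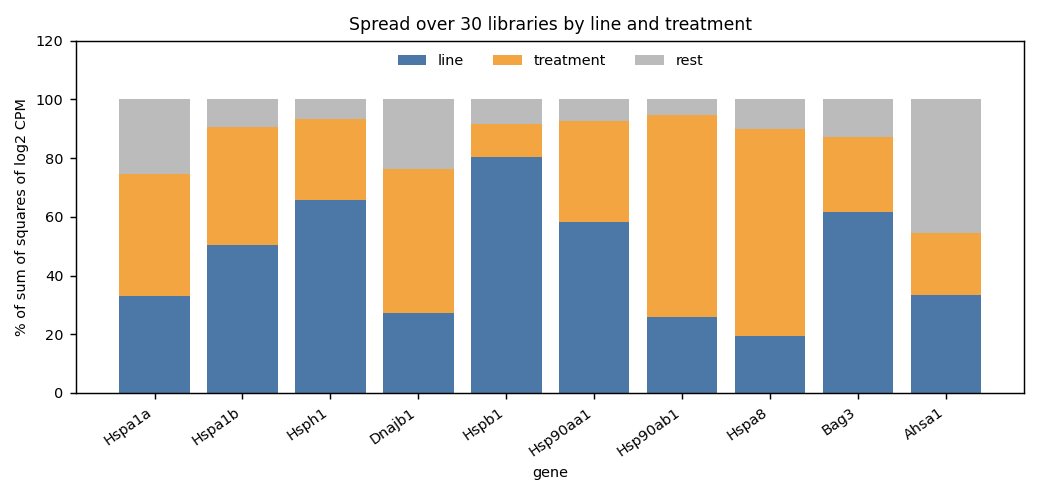
Share of the sum of squares of log2 CPM over 30 libraries that falls to the line, to the treatment and to neither, as stacked bars for each heat shock gene. Hspb1 is mostly line (80.5%), Hspa8 and Hsp90ab1 are mostly treatment (70.7% and 68.9%), and Ahsa1 has the largest rest.

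Across the 30 libraries likeness within the group varied from gene to gene. Correlations of log2 CPM are given as a description, since libraries share lines and treatments. Hspb1 and Bag3 were most alike (Pearson r = 0.907), and the 2 lines above set them apart together. Hsp90ab1 and Hspa8 had r = 0.821 and the near-copies Hspa1a and Hspa1b 0.695, with Hsp90aa1 and Hspa8 close behind at 0.662. The median over all pairs was 0.291 and the lowest −0.421, between Hspa1a and Ahsa1. Against the mean of the 10 scaled genes, Hsp90ab1 was closest (r = 0.871) and Ahsa1 farthest (r = 0.106). The 5 other genes most like that mean over the 30 libraries were Gapdh (r = 0.902), Capzb (0.893), Cct8 (0.891), Hist1h4i (0.890) and Rhob (0.885), of which Cct8 encodes a subunit of the cytosolic chaperonin TRiC.

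High density was accompanied by lower levels of both HSP90 genes, their activator Ahsa1 and Hspb1 in WT line E1.5. Here 4 of 10 genes fell and 0 rose, where 17% of 12229 genes were called, 1029 down and 1054 up. The 3 treatments stand in as replicates, so these p-values describe 1 line. Hsp90aa1 was at 2143, 2485 and 2256 CPM at low density (untreated, poly(I:C), AO) and at 1666, 1924 and 1949 at high density. The densities did not overlap, and Hsp90aa1 fell by 0.31 on the log2 scale (SE 0.05, edgeR adjusted p = 0.000678). Ahsa1 was at 170, 159 and 175 CPM and then at 137, 133 and 153, again without overlap (−0.25 ± 0.06, edgeR adjusted p = 0.0106).

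Hspb1 had the largest change with density. It was at 22.9, 38.0 and 19.5 CPM at low density and at 16.5, 19.3 and 14.4 at high density (−0.64 ± 0.12, edgeR adjusted p = 0.00359). Hsp90ab1 was at 3711, 4708 and 3457 CPM and then at 3288, 3926 and 3179 (−0.19 ± 0.04, edgeR adjusted p = 0.00966). Hspa1a (0.32 ± 0.22), Hspa1b (0.28 ± 0.16), Dnajb1 (0.14 ± 0.09), Hsph1 (0.00 ± 0.09), Hspa8 (−0.03 ± 0.07) and Bag3 (−0.10 ± 0.08) did not pass. After poly(I:C) Hspa1a was at 9.71 CPM at low and 8.60 at high density, beside 2.67 and 4.29 untreated. Without the poly(I:C) libraries 1 gene still passed, Hsp90aa1, and without the untreated ones 2, Hsp90aa1 and Hspb1. Every high-density library was deeper than every low-density one, as given above, so depth and density cannot be told apart. Ifit1 was also higher at high density (log2 1.72 ± 0.10), and its part in the heat shock differences was not tested. Unlabelled libraries of E1.5 lay between the 2 densities for Hsp90aa1 (1876, 2143 and 2133 CPM).

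**Figure D5:**
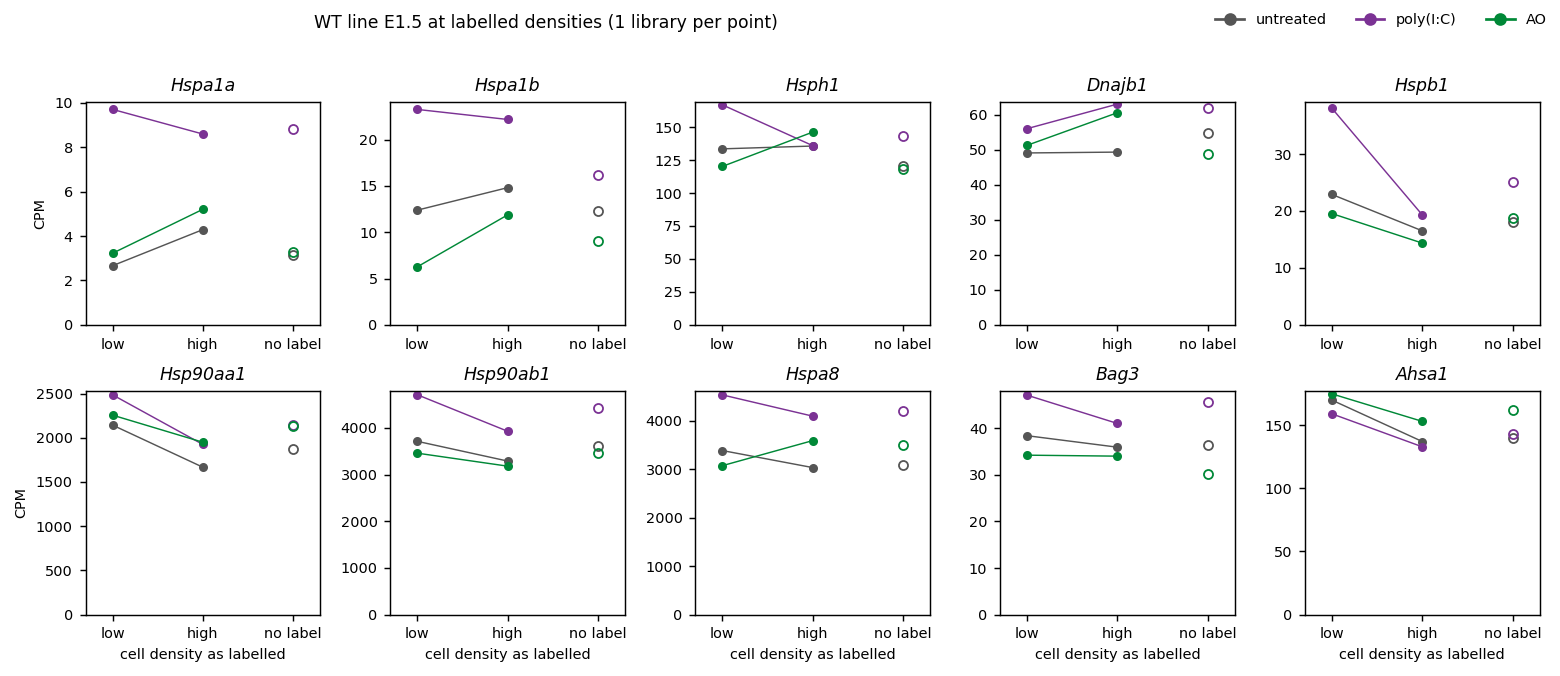
CPM of each heat shock gene in WT line E1.5 at low and high density, joined for each treatment, with the libraries that have no density label as open circles. Each point is 1 library. The lines of Hsp90aa1, Hsp90ab1, Hspb1 and Ahsa1 slope down in all 3 treatments.

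The wider chaperone network was counted on lists chosen with earlier results of these data known, over the mean response to AO and without the block unless stated. The share of all genes called in that comparison was 33.7%, with 2270 up and 2231 down of 13364. Of the heat shock factors and their regulators, 2 of 5 tested genes rose with AO and 0 fell. They were Hsf1, the master factor (0.39 ± 0.07, edgeR adjusted p = 6.12e-05), and Hsf2 (0.34 ± 0.08, edgeR adjusted p = 0.00104). With poly(I:C) 0 of the 5 passed, and Hsf1 differed by 0.11 ± 0.07. No rise of Hspa1a or Hspa1b with AO passed, as given above. Hspa1a had low counts, at a median of 4.53 CPM (1.49 to 7.08) after AO and 3.33 (2.22 to 6.73) untreated, so its direction is undecided. Whether the Hsf1 level bears on these genes was not tested.

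Mitochondrial chaperones moved with AO, 7 of 12 up and 0 down. Hspa9, the mitochondrial HSP70, rose by 0.62 ± 0.08 (edgeR adjusted p = 9.06e-07), its exchange factor Grpel2 by 0.80 ± 0.07 (edgeR adjusted p = 4.93e-09) and the protease Lonp1 by 0.65 ± 0.11 (edgeR adjusted p = 4.96e-05). Hspd1 and Hspe1, the HSP60 and HSP10 chaperonin, rose by 0.21 ± 0.07 (edgeR adjusted p = 0.0320) and 0.33 ± 0.13 (edgeR adjusted p = 0.0484). Hspe1 had a median of 180 CPM (153 to 243) untreated and 216 (182 to 478) after AO. Poly(I:C) gave 1 up and 1 down of the 12. Endoplasmic reticulum chaperones were split under AO, 3 up and 3 down of 15. Hspa5, the HSP70 of that compartment, rose by 0.59 ± 0.12 and Dnajb9, its HSP40, by 1.02 ± 0.10, while Dnajc10, a disulfide reductase, fell by 0.33 (SE 0.05).

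Among cytosolic partners, 8 of 16 other HSP40 genes rose with AO and 2 fell. Dnajc21, a ribosome biogenesis factor, rose by 0.73 ± 0.09 and Dnajb5 fell by 0.60 (SE 0.09). Of 16 HSP90 co-chaperones 6 rose and 3 fell, with Chordc1 at 0.30 ± 0.06 and Cdc37l1 at 0.31 ± 0.07. Of 12 genes of the BAG family and HSP70-linked degradation 5 rose and 1 fell, led by Sqstm1, which encodes the autophagy receptor p62 (1.41 ± 0.10, edgeR adjusted p = 3.16e-10). Of 8 other HSP70 and HSP110 genes 2 rose and 1 fell, Hspa4 rising by 0.25 ± 0.07 and Hspa12b falling (−1.31 ± 0.20). Of 14 TRiC and prefoldin genes 2 rose, Cct4 (0.32 ± 0.09) and Pfdn4 (0.47 ± 0.11). After AO, Cct4 had a median of 420 CPM (369 to 737) and Pfdn4 of 70.4 (61.8 to 144). Of the small heat shock proteins 4 of 8 were tested and 1 fell, Hspb6 (−0.47 ± 0.16). Median log2 differences ran from −0.16 for the small heat shock proteins to 0.20 for the mitochondrial chaperones, beside −0.02 for all genes.

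With poly(I:C), 21.7% of all genes were called, 1324 up and 1571 down of 13364. Among the lists, 4 of 14 TRiC and prefoldin genes, 4 of 16 HSP90 co-chaperones and 4 of 12 BAG and degradation genes rose. The genes lower in these were 0, 0 and 1. Sqstm1 rose by 0.37 ± 0.10 and Hspa4 by 0.23 ± 0.07, and Dnajb5 fell by 0.68 (SE 0.09). The HSP40 list had 1 up and 3 down, the other HSP70 genes 1 and 2, the endoplasmic reticulum list 1 and 1, and the small heat shock proteins 0 of each. Between genotypes, and for the response differences, 0 genes of these 9 lists passed with or without the block. At high density 17% of all genes were called, 1029 lower and 1054 higher of 12229. There, 10 of 14 TRiC and prefoldin genes were lower and 0 higher, with Cct2 at −0.27 ± 0.04 and Cct6a at −0.33 ± 0.06. Cryab, a small heat shock protein, was lower too (−0.99 ± 0.25, edgeR adjusted p = 0.0167), as were Hspe1 (−0.27 ± 0.06) and Hspd1 (−0.28 ± 0.08), while Sqstm1 was higher (0.37 ± 0.06).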

How the data were processed

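RNA from 36 fibroblast cultures was sequenced from TruSeq stranded mRNA libraries, per the labels' protocols. The authors deposited 1 table of expected counts for each library, made with STAR and RSEM on mm10, per the submitters' processing notes. Versions, annotation release and strand setting: not given in the sources used here. Between 6.11% and 13.4% of values in a library were not whole. RSEM divides reads among similar genes.

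Expected counts were rounded. Names and coordinates came from GENCODE vM21 (49326 of 49585 identifiers matched). The 30 libraries without a density label were fitted together in edgeR 4.0.16 (R 4.3.3), with 1 coefficient per group, TMM factors and filterByExpr (minimum count 10, minimum total 15). This left 13364 genes. Genes passed the quasi-likelihood test at a Benjamini-Hochberg adjusted p under 0.05. The 9 libraries of E1.5 were fitted with treatment and density (12229 genes). The code was tested on simulated data.

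Line names recur across treatments in the labels. The deviation from the group mean was compared between libraries of a line, with r of 0.342 to 0.765 over 30 pairs, so values with a replicate block by line stand beside the results. Within groups, chi-square per degree of freedom was 5.61 to 65.8, so no library repeated another of its group. Pairs across groups and libraries with a density label were not compared in this way. Hom line E1.4 after AO had the highest values, 57.5 and 65.8 against the other hom lines, which stood at 5.61 from each other. All 10 genes are named throughout. From the 9 pathway lists, the named genes are those with the 2 smallest p under AO averaged over genotypes or under density, plus Hsf1, Hsf2, Hspa5, Hspd1, Hspe1 and Hspa9. Members, lists and rules were chosen with earlier results of these data known. Alternatives were RLE factors, no filter, DESeq2 1.42.0, the block, compared groups alone, a covariate for the first part of the line name, leaving out lines, summing Hspa1a with Hspa1b, and CPM by library total.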

Additional observations from a re-analysis of the deposited data

Results flagged for a closer look

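In 7 of 30 groups of 4 het lines, 1 line stood far from the other 3 by Dixon's criterion. Chance meets it in about 1 of 20 independent groups, but these 30 reuse the same 4 lines. The share over all genes is not given here, so the count is no result about the heat shock genes. Untreated E2.6 also stood apart across genes, at a chi-square per degree of freedom of 26.1 to 30.5 from the other het lines. Those stood at 13.2 to 13.5 from each other. In 6 of the 7 groups the far line was E2.6. It was highest for Hsph1 after poly(I:C) (199 CPM, others 128 to 134) and after AO (131 CPM, others 114 to 116), and for Hspb1 after poly(I:C) (88.1 CPM, others 27.6 to 31.7). In untreated cells it was highest for Bag3 (70.8 CPM, others 36.8 to 41.6) and Ahsa1 (156 CPM, others 143 to 145), and it was lowest for Dnajb1 after poly(I:C) (57.1 CPM, others 71.8 to 73.5). The other was the untreated library of E1.3, lowest for Dnajb1 (53.7 CPM, others 58.2 to 58.8).

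Ahsa1 was higher after poly(I:C) in 3 of 3 WT lines and lower in 4 of 4 het lines, with a het difference of −0.0839 on the log2 scale beside 0.05 in WT. The test of the difference between the 2 responses gave −0.14 ± 0.16 and did not pass (edgeR adjusted p = 1.0).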

How the results depend on the processing

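Counts of the 10 genes that passed depended most on the line. With the replicate block the counts were 1, 1 and 1 for AO in WT, het and hom lines in place of 0, 5, 5 and 4 for poly(I:C) in place of 1, 1 and 0, and over genotypes 5 for AO in place of 2 and 9 for poly(I:C) in place of 5. With the block and Hspa1a and Hspa1b summed to 1 gene they were 1 for AO in hom lines, 5, 5 and 4 for poly(I:C), and 5 and 8 over genotypes. Without E2.6 and E1.4 together, added after the data were seen, they were 3, 3 and 1 for poly(I:C), and 4 and 8 over genotypes for AO and poly(I:C). With no filter, poly(I:C) gave 0 in WT and in het lines and AO over genotypes gave 0. DESeq2 gave 2 in het and 2 in hom lines for poly(I:C), the compared groups alone gave 0 in het lines and a covariate for the first part of the line name 2. The cause was not tested. Leaving out 1 line each gave 0 to 1 for poly(I:C) in WT, 0 to 3 in het, 0 to 1 in hom lines and 0 to 2 for AO over genotypes. Leaving out 1 treatment gave 1 to 4 for density. AO against poly(I:C) and all genotype comparisons kept their counts within 1.5 times under every alternative run. Of 3564 recomputed log2 differences, 196 changed sign, each passing in neither fit. Depth limits Hspa1a most, with 6 counts in its lowest library.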
